A study of Mus musculus with 12 samples.

Results

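The genes described here build and move motile cilia. They are 35 genes, from Foxj1 and the Rfx factors to the dynein arms, radial spokes, central pair and tektins, together with Meig1. Each gene was read from the transcript cluster (the probes summarized as 1 gene) whose only symbol was that gene, and where a gene had several such clusters the one with the highest mean over the 12 arrays was taken. All 35 genes were measured, among 23410 clusters with a symbol on an array of 35556 clusters.

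Whole-lung RNA of 12 mice was hybridised to Affymetrix arrays, 1 mouse per array and 3 mice per group, to ask how Fra-1 (encoded by Fosl1, a subunit of the transcription factor AP-1) shapes the lung response to bleomycin, a drug that injures the lung and leads to fibrosis. The groups were bleomycin-treated Fra-1-/- mice (KOT), bleomycin-treated Fra-1+/+ mice (WTT), PBS-treated Fra-1-/- mice (KOC) and PBS-treated Fra-1+/+ mice (WTC). All mice were of the C57/129S background and labelled as females of 2 months. Lungs were taken 5 days after 30 µL of PBS, alone or with 0.075 U of bleomycin, was given into the trachea. In the Fra-1-/- mice a floxed allele was deleted by Meox2-Cre, which acts in the embryo proper, so the deletion preceded treatment and was not limited to 1 lung cell type. The study's methods give an older age than the labels.

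Motile cilia of the airways sit in bundles on ciliated epithelial cells and move mucus out of the lung. Their core, the axoneme, is a ring of doublet microtubules around a central pair. Dynein arms on the doublets make the force, while radial spokes and the nexin-dynein regulatory complex set when each arm acts. Foxj1 switches the program on, and Rfx factors bind a sequence called the X-box in front of many of its genes.

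The values are log2 expression levels, so a difference of 1 is a doubling. A gene passed when limma, fitted to all 12 arrays, gave it a p under 0.05 after Benjamini-Hochberg adjustment over all 23410 clusters. The standard error (SE) of a difference comes from a variance pooled over the 4 groups and drawn by limma toward the variances of all clusters. The confidence intervals use the same variance. With 3 mice against 3, an exact test of 1 gene could not give a p below 0.1. Whole lung holds many cell types, so fewer ciliated cells and less RNA per ciliated cell cannot be told apart.

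The array medians lay between 7.14 and 7.22, and alveolar type 2 markers, which define lung, averaged 11.5 to 12.5 in the mice. The Fosl1 cluster read 7.28 to 7.33 in KOT mice and 7.81 to 8.32 in WTT mice, and 6.26 to 6.68 in KOC mice and 6.37 to 6.86 in WTC mice. Which of its probes lie in the deleted part was not examined, and the PBS-treated groups overlapped, so Fosl1 does not settle the genotype of single mice. In 12 of 12 arrays the sex-linked genes did not match the labelled sex. The numbers in the titles were under 100 for the 6 Fra-1-/- mice and for WTC 76, and above 100 for the other 5 Fra-1+/+ mice. Between KOT and WTT mice, genotype and number series cannot be told apart. Of the 35 genes, 28 lay above the array median in each of the 12 arrays, and the means of the 35 over the 12 arrays ran from 6.51 to 11.6. The median standard deviation of a gene within a group was 0.11 in KOT, 0.14 in WTT, 0.12 in KOC and 0.13 in WTC mice.

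The X-box was searched in the promoters (250 bases before to 50 after the start of transcription) given by RefSeq on GRCm38.p6. It was spelled as the 2 half-sites GTTNCC and GNAAC, in this order on either strand, with 0 to 4 bases between them. Promoters were given for 31 of the 35 genes, 37 promoters in all, and not for Foxj1, Rsph1, Rsph4a and Tppp3. The X-box stood in 10 of the 37 promoters (27%), which belong to 9 genes, against 1.94% of all 32851 promoters of this length. The match is in capitals, with 15 bases on each side. The sequences are shown because 9 of the 31 genes share this feature, which did not enter the choice of the 35.
Spag16, chr1:69826852-69826895, plus strand: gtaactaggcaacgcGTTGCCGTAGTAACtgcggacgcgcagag
Enkur, chr2:21205349-21205392, minus strand: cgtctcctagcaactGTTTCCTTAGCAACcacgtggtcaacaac
Spag17, chr3:99885193-99885237, plus strand: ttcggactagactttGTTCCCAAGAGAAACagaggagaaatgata
Tekt2, chr4:126325690-126325732, minus strand: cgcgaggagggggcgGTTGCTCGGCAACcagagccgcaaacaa
Hydin, chr8:110266941-110266984, plus strand: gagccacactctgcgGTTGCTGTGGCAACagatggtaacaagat
Dynlrb2, chr8:116504949-116504991, plus strand: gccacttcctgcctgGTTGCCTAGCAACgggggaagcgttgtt
Dnah9, chr11:66168606-66168648, minus strand: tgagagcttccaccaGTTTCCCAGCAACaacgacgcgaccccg
Tekt4, chr17:25471575-25471618, plus strand: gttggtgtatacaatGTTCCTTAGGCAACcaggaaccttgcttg
Rfx2, chr17:56831095-56831139, minus strand: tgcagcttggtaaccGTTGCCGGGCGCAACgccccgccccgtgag
The strand is that of the gene. In Tekt2, Hydin and Tekt4 the half-sites run in the stated order on the opposite strand.

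The half-site GTTGCC alone, which overlaps many of these matches, stood in 51.4% of the 37 promoters and in 12.5% of all promoters. The forkhead motif TGTTTAC, of the factor family of Foxj1, stood in 8.11% of the 37 promoters (those of Ak7, Mlf1 and Sntn) and in 3.65% of all. The AP-1 motif TGANTCA stood in 18.9%, in Dnah5, Drc1, Hydin, Lrriq1, Mlf1, Rfx3 and Sntn, against 7.81% of all. In 32 promoters of other axoneme and arm assembly genes, a list described below, GTTGCC stood in 50%, TGTTTAC in 3.12% and TGANTCA in 6.25%. The larger shares of the forkhead and AP-1 motifs were thus not seen in that list. The 3 promoters given for Meig1, all on the minus strand of chromosome 2 (chr2:3422599-3422898, chr2:3419080-3419379 and chr2:3418548-3418847), held none of the 4 motifs as spelled. These are matches of letters, and binding was not measured.

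In Fra-1+/+ mice, bleomycin lowered most of the cilium genes. In WTT against WTC mice 31 of the 35 passed as lower and 0 as higher, where 11.3% of all clusters passed as lower and 10.2% as higher. By the local-pooled-error test of the study's methods, at an adjusted p under 0.01, 15 passed as lower (4.47% of all clusters). Their median log2 difference was -0.61, a level of 65.7% of WTC, against a median of 0.02 over all clusters. The 3 WTT mice lay below the 3 WTC mice in 33 of the 35 genes, as they did in 17.4% of all clusters. The 4 genes that did not pass were Foxj1, Mlf1, Kif9 and Drc1. The calls of Rsph1, Tekt2, Ccdc40, Ccdc113, Kif27, Rfx2, Rfx3 and Capsl were lost, at differences of -0.53 to -0.23, when 1 of several mice (WTC 76, WTC 158, WTT 160, WTT 161 or WTT 164) was left out.

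In Fra-1-/- mice the same comparison gave fewer calls. In KOT against KOC mice 11 of the 35 passed as lower and 0 as higher, where 7.98% of all clusters passed as lower and 7.42% as higher, and 4 passed as lower by the local-pooled-error test (3.63% of all clusters). The median log2 difference was -0.21 (86.2% of KOC) against 0.02 over all clusters. The 3 KOT mice lay below the 3 KOC mice in 18 genes, as in 16.6% of all clusters. All 11 were among the 31 that passed in Fra-1+/+ mice, the other 20 of the 31 did not pass in Fra-1-/- mice, and no gene passed in Fra-1-/- mice alone. This count rests on single mice, with 6 genes passing without KOC 53, 7 without KOC 55 and 5 without KOT 72 or without KOT 81. The shares of all clusters that passed without these mice were not counted. Tppp3, Ak7, Rsph4a and Dnali1 passed whichever mouse was left out, while Meig1, Dnah6, Tekt2, Hydin, Dynlrb2, Zmynd10 and Enkur lost their call, at differences of -0.57 to -0.27, without at least 1 of the mice KOC 53, KOC 55, KOC 67, KOT 72, KOT 81, WTC 76 and WTT 161. The difference between the responses, (KOT minus KOC) minus (WTT minus WTC), was positive in 33 of the 35 genes, as in 48.6% of all clusters, with a median of 0.32 against -0.01 over all. By limma 0 of the 35 passed in this difference, as did 0% of all clusters. At an unadjusted p under 0.05 there were 14 of the 35, all positive, against 2.99% of all clusters. The smaller response in Fra-1-/- mice is a direction that most of the genes share in these mice, with no single gene past the threshold. The genes of 1 mouse moved together, so these counts are not of independent genes. The KOC mean also lay below the WTC mean in 28 of the 35, which enters the difference between the responses.

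**Figure D1:**
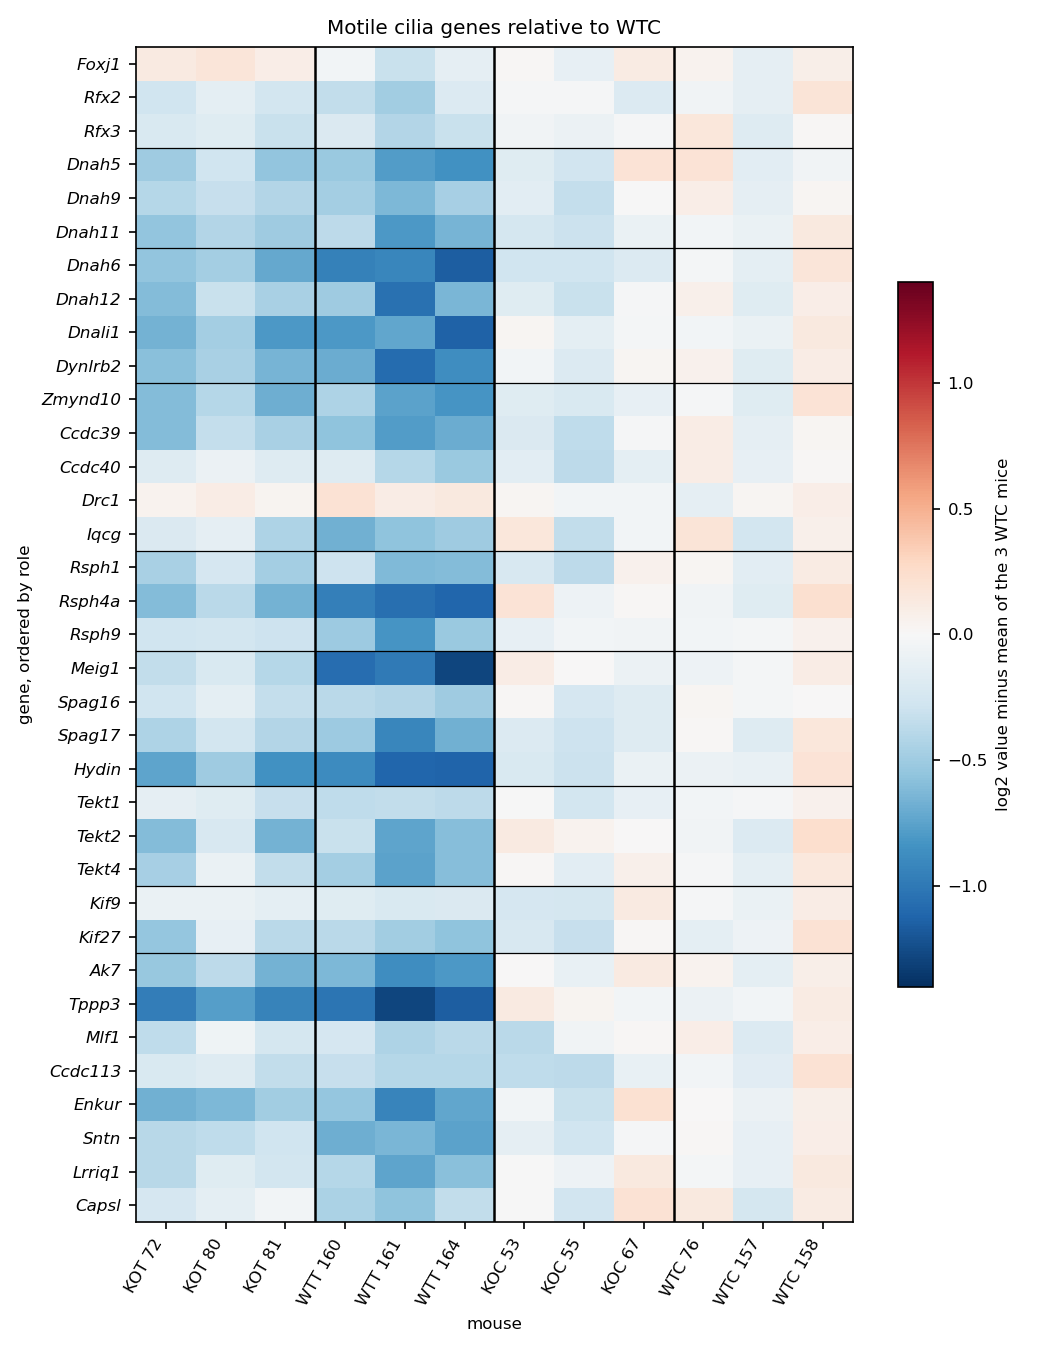
Each square is the log2 level of 1 gene in 1 mouse minus the mean of the 3 WTC mice, with genes in rows by role and mice in columns from KOT and WTT to KOC and WTC (blue, lower; red, higher). The WTT columns are the darkest blue in most rows, the KOT columns are paler, and Foxj1 and Drc1 show no blue in the KOT columns.

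Between the genotypes after bleomycin, Meig1 was the 1 gene of the 35 that passed. In KOT against WTT mice 1 of the 35 passed as higher and 0 as lower, where 0.0427% of all clusters passed as higher and 0% as lower. The 35 genes, Meig1 among them, were chosen with earlier results of these data known. These shares are therefore descriptions and not a test of the set. By the local-pooled-error test 0 passed (0.555% of all clusters as higher). The difference was positive in 34 of the 35 (45.8% of all clusters). Drc1 was the exception at -0.08. It read below the array median in every mouse, as did Spag16, which differed by 0.18. The median difference was 0.25, a level of 119% of WTT, against -0.01 over all clusters. At an unadjusted p under 0.05 there were 16 genes, all higher, against 4.27% of all clusters. The 3 KOT mice lay above the 3 WTT mice in 18 genes, against 6.92% of all clusters. KOT and KOC share no mice with WTT and WTC, but KOT enters both its comparison with KOC and that with WTT, so these counts are not independent.

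After PBS no cilium gene passed between the genotypes. In KOC against WTC mice 0 of the 35 passed by limma in either direction, where 0.0128% of all clusters passed as higher and 0% as lower, and 0 passed by the local-pooled-error test (0.346% of all clusters as higher and 1.44% as lower). At an unadjusted p under 0.05 there were 2, both lower, against 6.88% of all clusters. The median difference was -0.08, and 28 of the 35 were negative, against 52.2% of all clusters. In 3 genes the KOC mice lay below all WTC mice, against 9.37% of all clusters. Against WTC 76 alone, the WTC mouse of the same number series, the median was -0.12, with the KOC mean below that mouse in 29 of 35 genes.

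Meig1 encodes a small protein that mice need to make sperm tails, and it is also expressed in ciliated airway cells. It read 9.04, 9.17 and 8.99 in KOT mice 72, 80 and 81, against 8.32, 8.39 and 8.10 in WTT mice 160, 161 and 164. In KOC mice 53, 55 and 67 it read 9.49, 9.39 and 9.30, against 9.31, 9.35 and 9.48 in WTC mice 76, 157 and 158. The treated groups were thus separate from each other and from both PBS groups, and the PBS groups overlapped. In order of level the WTT mice were lowest at 8.27 ± 0.15, the KOT mice followed at 9.07 ± 0.09, and WTC mice at 9.38 ± 0.09 and KOC mice at 9.39 ± 0.10 did not differ beyond their spread (SD, n = 3 each).

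Meig1 was 0.80 higher in KOT than in WTT mice (SE 0.09, limma adjusted p = 0.0145), which is 1.74-fold, with a 95% confidence interval of 0.59 to 1.00. It fell by 1.11 in WTT against WTC mice (SE 0.09, limma adjusted p = 8.2e-05), to 46.2% of WTC, and by 0.33 in KOT against KOC mice (SE 0.09, limma adjusted p = 0.0351), to 79.7% of KOC. In KOC against WTC mice it differed by 0.01 (SE 0.09, limma adjusted p = 0.989). The difference between its responses, 0.79 (95% confidence interval 0.50 to 1.07), had the smallest adjusted p of the 35 genes, 0.449 by limma. Its call in KOT against WTT was lost without KOT 72 (adjusted p = 0.0711) and without KOT 80 (adjusted p = 0.0657), at differences of 0.81 and 0.74, and with a term for the number series, which only WTC 76 separates from genotype, at 0.90 (adjusted p = 0.858).

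The genes beside Meig1 on chromosome 2 were read to see how far its difference extended along the chromosome. Dclre1c, directly beside Meig1 in RefSeq order, had no cluster with that single symbol and was not read. In KOT against WTT mice Rpp38 differed by 0.12, Acbd7 by 0.09, Olah by -0.33, Suv39h2 by 0.02 and Hspa14 by 0.04, and none passed (limma adjusted p of 0.378 to 0.966). The clusters whose values were most like those of Meig1 once the group means were taken out, over 12 arrays, were Gna12 (Pearson's r = 0.97), Zfp560 (0.97), Kcp (0.96), 1700018A04Rik (0.96) and Tsx (0.96). They are the highest among 21789 clusters with a single symbol, and shared regulation was not tested. Among the other 34 cilium genes this r ran from -0.35 for Rsph9 to 0.89 for Dnali1. The points share the 4 groups and 8 residual degrees of freedom, so these are descriptions.

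**Figure D2:**
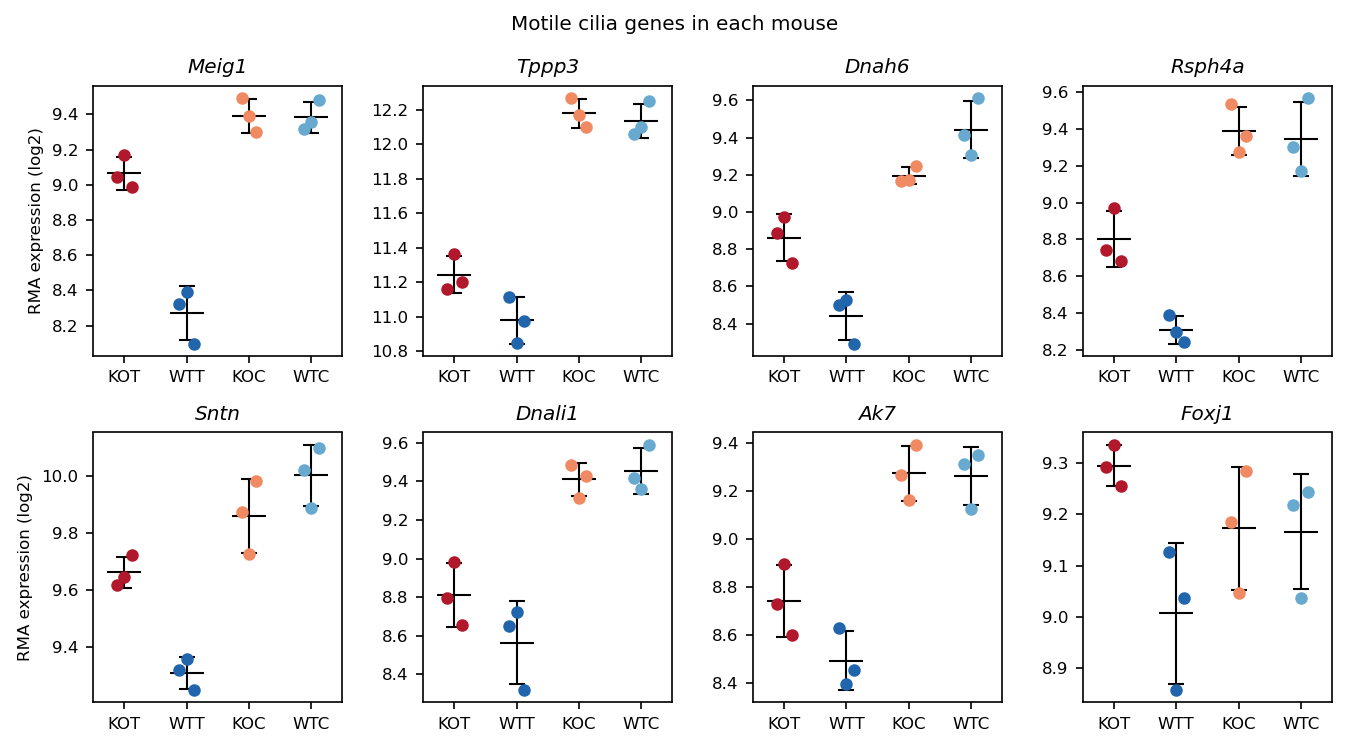
Log2 expression of 8 genes in each mouse, by group from KOT and WTT to KOC and WTC, with points for mice and bars for the mean and SD of 3 mice. The vertical axes differ between genes and do not start at 0. In Meig1 the KOT mice (8.99 to 9.17) sit between the WTT mice (8.10 to 8.39) and the PBS groups, while in Foxj1 the KOT mice (9.26 to 9.34) sit above the WTT and WTC mice and overlap the KOC mice.

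Among the transcription factors, Foxj1, the master regulator of motile cilia, passed in no comparison. It read 9.29, 9.34 and 9.26 in KOT mice, against 9.13, 8.86 and 9.04 in WTT mice. It read 9.19, 9.05 and 9.28 in KOC mice, against 9.22, 9.04 and 9.24 in WTC mice. The KOT mice lay above the WTT mice without overlap, by 0.29 (SE 0.09), which did not pass (limma adjusted p = 0.332). The response was -0.16 in WTT against WTC (limma adjusted p = 0.256) and 0.12 in KOT against KOC (limma adjusted p = 0.427). Rfx2 and Rfx3, which act with Foxj1 on cilium genes, fell in WTT against WTC mice by 0.34 (SE 0.10, limma adjusted p = 0.0327) and 0.31 (SE 0.09, limma adjusted p = 0.0313), each with no overlap, and did not pass in KOT against KOC at -0.15 and -0.18.

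The outer dynein arm heavy chains Dnah5, Dnah9 and Dnah11 drive the beat. All 3 passed as lower in WTT against WTC mice, by 0.72 (SE 0.14), 0.52 (SE 0.09) and 0.61 (SE 0.11), with limma adjusted p of 0.00285 to 0.00417. None of the 3 passed in KOT against KOC mice, where they differed by -0.36, -0.21 and -0.27 (limma adjusted p of 0.107 to 0.155). After bleomycin KOT mice differed from WTT mice by 0.27, 0.15 and 0.12 in these genes.

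The inner arm genes Dnah6, Dnah12 and Dnali1 and the dynein light chain Dynlrb2 all passed as lower in WTT against WTC, and 3 of these 4, without Dnah12, in KOT against KOC. Dnah6, an inner arm heavy chain, read 8.89, 8.97 and 8.72 in KOT mice, against 8.50, 8.53 and 8.29 in WTT mice. It read 9.17, 9.17 and 9.25 in KOC mice, against 9.41, 9.31 and 9.61 in WTC mice. No group overlapped another. The KOC mice lay below the WTC mice (-0.25, SE 0.10, limma adjusted p = 0.461) and the KOT mice above the WTT mice (0.42, SE 0.10, limma adjusted p = 0.227), and neither difference passed. It fell by 1.00 in WTT against WTC mice (SE 0.10, limma adjusted p = 0.000152) and by 0.33 in KOT against KOC mice (SE 0.10, limma adjusted p = 0.0411). Dnah6 has 2 more clusters, which gave -0.96 and -0.99 in WTT against WTC and -0.35 and -0.37 in KOT against KOC, but -0.04 and -0.15 in KOC against WTC.

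Dnali1, a light intermediate chain of the inner arms, read 8.80, 8.98 and 8.66 in KOT mice, against 8.65, 8.72 and 8.32 in WTT mice, which overlap. It read 9.49, 9.32 and 9.43 in KOC mice, against 9.42, 9.36 and 9.59 in WTC mice. Dnali1 fell in both genotypes, by 0.89 in WTT against WTC (SE 0.12, limma adjusted p = 0.000682) and by 0.60 in KOT against KOC (SE 0.12, limma adjusted p = 0.0064). The light chain Dynlrb2 also fell in both, by 0.88 (SE 0.11, limma adjusted p = 0.000536) and 0.50 (SE 0.11, limma adjusted p = 0.0113). Dnah12, another inner arm heavy chain, fell by 0.73 in WTT against WTC (SE 0.14, limma adjusted p = 0.00429) and differed by -0.29 in KOT against KOC (limma adjusted p = 0.198). Its second cluster gave -0.49 and -0.14.

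Zmynd10, which helps to assemble the arms before they enter the cilium, fell in both genotypes, by 0.67 in WTT against WTC (SE 0.12, limma adjusted p = 0.00288) and by 0.40 in KOT against KOC (SE 0.12, limma adjusted p = 0.0462). Ccdc39 and Ccdc40 form the ruler that spaces the inner arms and spokes along a doublet. Ccdc39 fell by 0.68 in WTT against WTC (SE 0.11, limma adjusted p = 0.00147) and differed by -0.27 in KOT against KOC. Ccdc40 read 7.68, 7.78 and 7.68 in KOT mice, against 7.69, 7.47 and 7.34 in WTT mice. It read 7.72, 7.50 and 7.73 in KOC mice, against 7.96, 7.75 and 7.88 in WTC mice. It fell by 0.37 in WTT against WTC (SE 0.10, limma adjusted p = 0.0238), while the KOT and KOC mice overlapped at a difference of 0.07. In KOC against WTC mice Ccdc40 did not overlap and differed by -0.21 (SE 0.10, limma adjusted p = 0.522).

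Of the nexin-dynein regulatory complex, Iqcg fell by 0.58 in WTT against WTC (SE 0.14, limma adjusted p = 0.0133) and differed by -0.18 in KOT against KOC. Drc1 was the 1 gene of the 35 with a positive difference in WTT against WTC mice, 0.15 (SE 0.07, limma adjusted p = 0.175), and it gave 0.08 in KOT against KOC.

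The radial spoke head genes fell in Fra-1+/+ mice. Rsph4a read 8.74, 8.97 and 8.69 in KOT mice, against 8.39, 8.30 and 8.24 in WTT mice. It read 9.53, 9.28 and 9.36 in KOC mice, against 9.30, 9.17 and 9.57 in WTC mice. The order was that of Meig1, with WTT mice lowest, KOT mice above them and the PBS groups overlapping. Rsph4a fell by 1.04 in WTT against WTC (SE 0.11, limma adjusted p = 0.000256) and by 0.59 in KOT against KOC (SE 0.11, limma adjusted p = 0.00565). Its 0.49 in KOT against WTT (SE 0.11, limma adjusted p = 0.211) was the second largest of the 35 and did not pass. Rsph9 fell by 0.62 (SE 0.08, limma adjusted p = 0.000757) and Rsph1 by 0.50 (SE 0.13, limma adjusted p = 0.0167) in WTT against WTC, and each differed by -0.21 in KOT against KOC without passing.

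Hydin, a large protein of a central pair projection, fell by 1.04 in WTT against WTC (SE 0.11, limma adjusted p = 0.000278) and by 0.49 in KOT against KOC (SE 0.11, limma adjusted p = 0.0144). Spag17, which scaffolds another projection, read 7.66, 7.84 and 7.69 in KOT mice, against 7.59, 7.18 and 7.42 in WTT mice. It read 7.91, 7.81 and 7.92 in KOC mice, against 8.12, 7.92 and 8.25 in WTC mice. The KOC and WTC mice met at 7.92 to 2 decimals, and of the groups compared KOT and KOC overlapped, where Spag17 differed by -0.14 (SE 0.11, limma adjusted p = 0.44). It fell by 0.70 in WTT against WTC (SE 0.11, limma adjusted p = 0.00153). Spag16 fell by 0.43 (SE 0.08, limma adjusted p = 0.00353) in WTT against WTC and differed by -0.12 in KOT against KOC.

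The tektins are filaments inside the doublets. Tekt2 gave nearly the same value in both genotypes, with -0.55 in WTT against WTC (SE 0.14, limma adjusted p = 0.0193) and -0.56 in KOT against KOC (SE 0.14, limma adjusted p = 0.0229), and both passed. The difference between these responses was -0.01, with a 95% confidence interval of -0.46 to 0.44. Tekt4 fell by 0.61 (SE 0.11, limma adjusted p = 0.00378) and Tekt1 by 0.36 (SE 0.08, limma adjusted p = 0.00879) in WTT against WTC, and they differed by -0.28 and -0.08 in KOT against KOC. Of the kinesins, Kif27 fell by 0.48 in WTT against WTC (SE 0.13, limma adjusted p = 0.0211). Kif9, a kinesin of the central pair, differed by -0.20 (limma adjusted p = 0.18).

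Tppp3, a tubulin polymerization-promoting protein abundant in ciliated cells, had the largest fall of the 35 in both genotypes. It read 11.16, 11.37 and 11.20 in KOT mice, against 11.12, 10.85 and 10.98 in WTT mice. It read 12.27, 12.17 and 12.10 in KOC mice, against 12.06, 12.10 and 12.25 in WTC mice. Each treated mouse lay far below each PBS mouse, and the treated groups were close but separate. Tppp3 fell by 1.16 in WTT against WTC (SE 0.09, limma adjusted p = 6.0e-05), to 44.9% of WTC, and by 0.93 in KOT against KOC (SE 0.09, limma adjusted p = 0.000341), to 52.3% of KOC. The difference between the responses was 0.22, with a 95% confidence interval of -0.06 to 0.50.

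Ak7, a ciliary adenylate kinase, also fell in both genotypes. It read 8.73, 8.89 and 8.60 in KOT mice, against 8.63, 8.39 and 8.45 in WTT mice. It read 9.26, 9.16 and 9.39 in KOC mice, against 9.31, 9.12 and 9.35 in WTC mice. The treated groups overlapped and the falls were 0.77 in WTT against WTC (SE 0.10, limma adjusted p = 0.000686) and 0.53 in KOT against KOC (SE 0.10, limma adjusted p = 0.00557). Enkur, a calmodulin-binding protein of the axoneme, fell by 0.73 (SE 0.13, limma adjusted p = 0.0027) and 0.55 (SE 0.13, limma adjusted p = 0.015).

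Sntn, which encodes the ciliary tip protein sentan, read 9.62, 9.64 and 9.72 in KOT mice, against 9.32, 9.36 and 9.25 in WTT mice. It read 9.87, 9.72 and 9.98 in KOC mice, against 10.02, 9.89 and 10.10 in WTC mice. The KOT mice lay above the WTT mice by 0.35 (SE 0.08, limma adjusted p = 0.229), which did not pass. Sntn fell by 0.69 in WTT against WTC (SE 0.08, limma adjusted p = 0.000432), and in KOT against KOC it differed by -0.20 (limma adjusted p = 0.138). Ccdc113, a cilium-associated coiled-coil protein, had the smallest p of the 35 in KOC against WTC, at -0.28 (SE 0.10, limma adjusted p = 0.453). It read 7.38, 7.42 and 7.25 in KOT mice, against 7.28, 7.20 and 7.20 in WTT mice. It read 7.24, 7.23 and 7.50 in KOC mice, against 7.56, 7.44 and 7.80 in WTC mice, and both pairs overlapped. Ccdc113 fell by 0.37 in WTT against WTC (SE 0.10, limma adjusted p = 0.024) and differed by 0.03 in KOT against KOC.

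Of the remaining genes, Lrriq1 fell by 0.57 (SE 0.11, limma adjusted p = 0.00318) and Capsl, a calcyphosine-like calcium-binding protein, by 0.45 (SE 0.13, limma adjusted p = 0.0292) in WTT against WTC. Neither passed in KOT against KOC, at -0.29 and -0.12. Mlf1 differed by -0.35 in WTT against WTC and missed the threshold (SE 0.12, limma adjusted p = 0.0653).

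**Figure D3:**
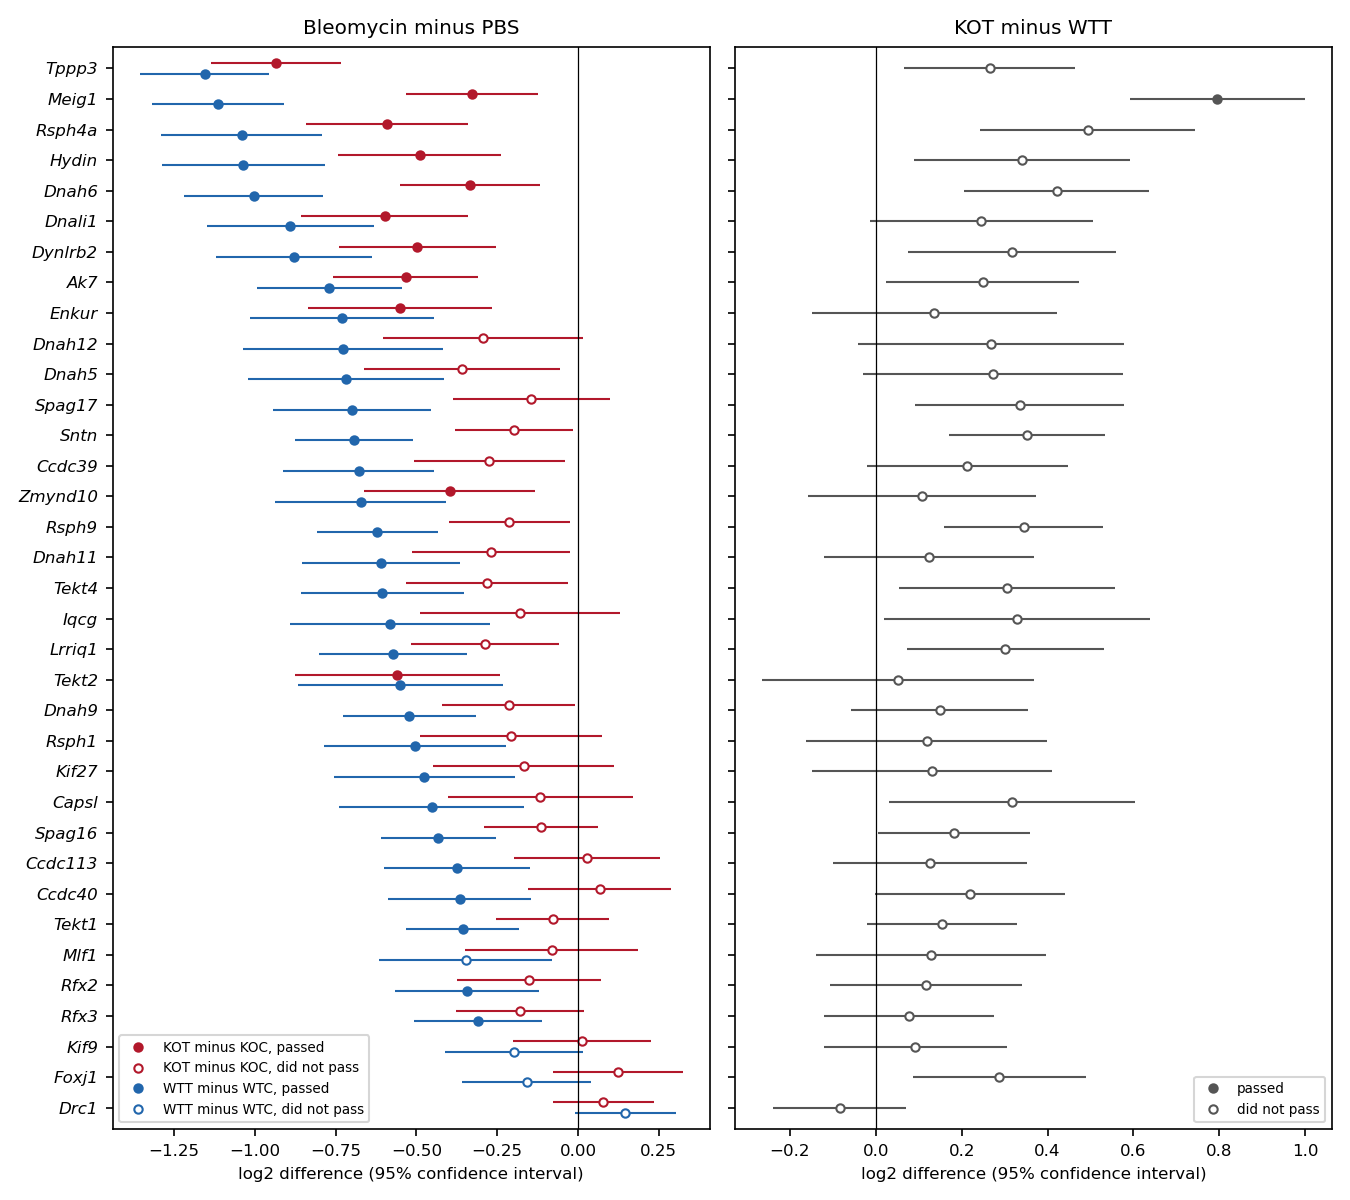
Log2 differences of the 35 genes with 95% confidence intervals, ordered by the value in WTT minus WTC. In the left panel KOT minus KOC (red) is drawn as the upper point of each row and WTT minus WTC (blue) as the lower, with filled points for genes that passed, and the right panel gives KOT minus WTT, where the 1 filled point is Meig1 at 0.80.

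The mice within a group also differed along the whole set. KOT 80 was the highest KOT mouse in 30 of the 35 genes and WTT 160 the highest WTT mouse in 26. KOC 55 was the lowest KOC mouse in 27, WTC 157 the lowest WTC mouse in 29 and WTC 158 the highest in 27. The genes of 1 mouse therefore moved together, and the 35 are not independent of each other. As a sum of linear levels, the 35 genes reached 12934 to 14429 in KOT mice and 10457 to 12031 in WTT mice, against 17033 to 18642 in KOC mice and 17433 to 20272 in WTC mice. The groups overlapped in the PBS-treated mice and were separate after bleomycin.

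The 9 genes with an X-box, whose sequences are printed above, all passed as lower in WTT against WTC mice, and 4 of them (Dynlrb2, Enkur, Hydin and Tekt2) passed in KOT against KOC. Of the 22 genes with a promoter and no X-box, 19 passed in WTT against WTC and 5 in KOT against KOC. The median in WTT against WTC was -0.61 in the 9 genes and -0.60 in the 22. Their medians in KOT against WTT were 0.18 and 0.23. Of the 7 genes with the AP-1 motif, 5 passed as lower in WTT against WTC, 1 in KOT against KOC and 0 as higher in KOT against WTT, with a median of 0.27 in the last comparison, against 0.22 in the 24 without it.

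Other genes of the axoneme and of arm assembly, 39 of them measured, moved in the same direction as the 35. In each mouse 9 to 14 of the 39 lay below the array median. In WTT against WTC mice 26 of the 39 passed as lower and 0 as higher, with a median of -0.50, and in KOT against KOC 6 passed as lower, with a median of -0.16. None passed by limma in KOT against WTT, where the median was 0.18, and an unadjusted p under 0.05 was met by 12 as higher and 1 as lower. The smallest p in that comparison belonged to Wdr63, an inner arm intermediate chain also known as Dnai3, at 0.56 (SE 0.10, limma adjusted p = 0.116), and to Fam183b at 0.41 (SE 0.09, limma adjusted p = 0.21). The X-box stood in 8 of the 32 promoters given for these genes (25%), the AP-1 motif in 2 (6.25%) and the forkhead motif in 1 (3.12%).

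The regulators that start multiciliation changed unevenly. Of 15 measured, 3 passed as lower in WTT against WTC, Gmnc at -1.28 (limma adjusted p = 0.00102), Myb at -0.99 (limma adjusted p = 0.00146) and Trp73 at -0.47 (limma adjusted p = 0.00519). Plk4, the kinase that starts centriole duplication also in dividing cells, rose by 0.47 (limma adjusted p = 0.00697). In KOT against KOC mice Gmnc fell by 1.29 (limma adjusted p = 0.0015) and Plk4 rose by 0.34 (limma adjusted p = 0.04). None of the 15 passed in KOT against WTT, with Myb at 0.52 (SE 0.16, limma adjusted p = 0.318) and Deup1 at 0.27 (SE 0.13, limma adjusted p = 0.486) at the smallest p. In each mouse 6 to 8 of the 15 lay below the array median, and a change in such genes could be missed.

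Genes of intraflagellar transport and primary cilia, which other lung cells also use, had medians nearer to 0. Of 29 measured, 11 passed as lower in WTT against WTC, with a median of -0.23, and 5 in KOT against KOC, with a median of -0.13. None of the 29 passed in KOT against WTT, and Ift88 at 0.23 (SE 0.07, limma adjusted p = 0.333) and Dync2li1 at 0.23 (SE 0.09, limma adjusted p = 0.386) had the smallest p. Germ cell genes were read because Meig1 and the tektins are also genes of the testis, and 11 to 12 of the 12 lay below the array median in each mouse. They gave 0 of 12 passing in WTT against WTC and in KOT against WTT, and 2 passing as lower in KOT against KOC. Their summed level was 625 to 653 in KOT mice and 638 to 669 in WTT mice, against 593 to 647 in KOC mice and 612 to 645 in WTC mice. Their smallest p in KOT against WTT were those of Acrv1 at -0.16 and Prm2 at -0.12.

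Markers of other cell types moved with the cilium genes. Club and secretory airway genes passed as lower in 7 of 10 in WTT against WTC and in 3 of 10 in KOT against KOC. Their summed level was 40461 to 43775 in KOT mice and 28773 to 33427 in WTT mice, against 48743 to 58093 in KOC mice and 48344 to 58770 in WTC mice. None of the 10 passed in KOT against WTT, with a median of 0.66, and the smallest p were those of Scgb3a1 at 1.28 (SE 0.29, limma adjusted p = 0.21) and Scgb3a2 at 0.62 (SE 0.17, limma adjusted p = 0.288). At an unadjusted limma p under 0.05, 6 of the 10 were higher and 0 lower, where 4.27% of all clusters were higher. This list had the order of groups seen in the cilium genes, and its part in the result was not tested.

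Cardiac muscle genes, which lung samples can carry from pulmonary veins, passed as lower in 7 of 9 in WTT against WTC and in 0 of 9 in KOT against KOC. Their summed level was 7299 to 9549 in KOT mice and 3668 to 5977 in WTT mice, against 6218 to 18027 in KOC mice and 11159 to 14802 in WTC mice. None of the 9 passed in KOT against WTT, with a median of 0.70 and Myl4 at 1.01 (SE 0.31, limma adjusted p = 0.328) and Myl7 at 1.05 (SE 0.39, limma adjusted p = 0.383) at the smallest p. At an unadjusted limma p under 0.05, 4 of the 9 were higher and 0 lower, where 4.27% of all clusters were higher. The KOC mice spread widely in this list while their cilium genes did not. The part of these cells in the result was not tested.

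Alveolar epithelium gave another pattern. Alveolar type 2 genes passed as lower in 6 of 9 in WTT against WTC and 5 of 9 in KOT against KOC, with medians of -0.58 and -0.62, and a median difference between the responses of 0.00, where the cilium genes had 0.32. Alveolar type 1 genes passed as lower in 6 of 8 in each genotype, with medians of -0.76 and -0.70. Neither list had a gene that passed in KOT against WTT, with Napsa at 0.26 and Lamp3 at 0.28 in the first, and Aqp5 at 0.12 and Akap5 at 0.18 in the second, at the smallest p. General epithelial genes passed in both directions, 2 of 9 higher and 2 lower in each genotype, and their summed level was 12312 to 14213 in KOT mice and 11007 to 13210 in WTT mice, against 12342 to 12898 in KOC mice and 11674 to 12486 in WTC mice. These summed levels overlapped between the groups compared.

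**Figure D4:**
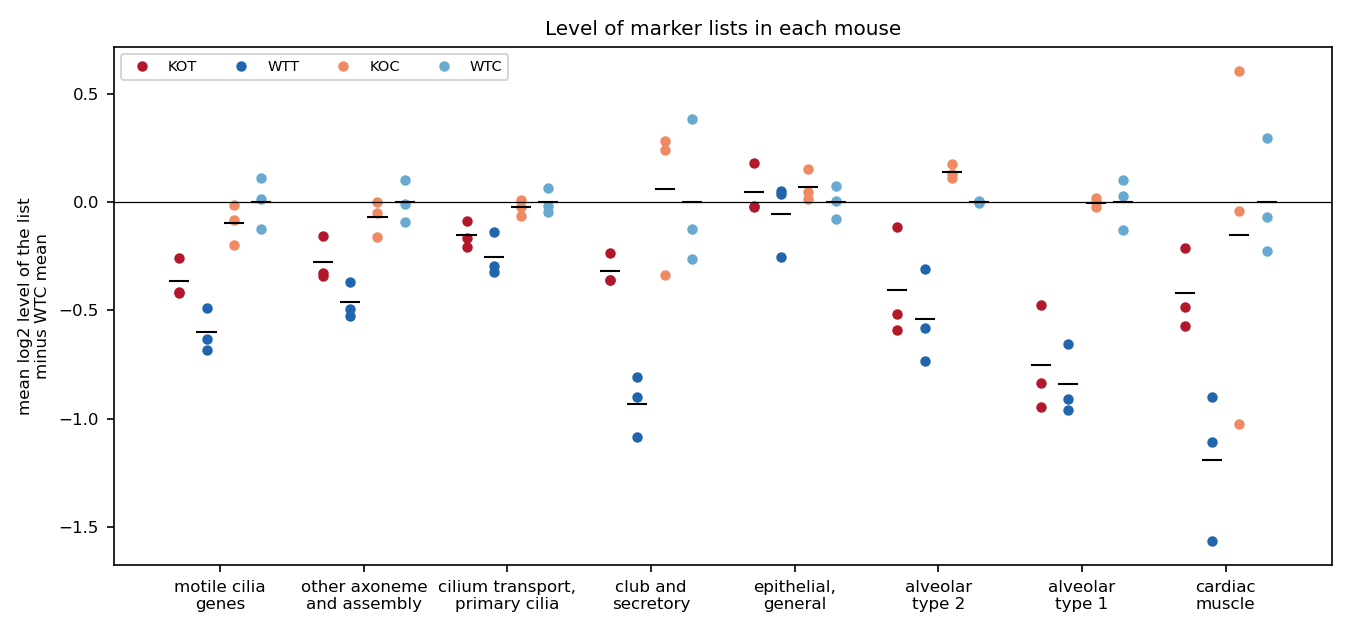
Mean log2 level of each list in each mouse, relative to the WTC mean (line at 0), with 1 point per mouse and a bar per group mean, groups from KOT and WTT to KOC and WTC. The motile cilia, other axoneme, club and cardiac lists show KOT above WTT without overlap, and the alveolar type 1 and type 2 lists show overlapping treated groups.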

How the data were processed

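Values were the log2 expression levels that the authors deposited, made by quantile normalization over all samples and RMA summary with median polish in Affymetrix Power Tools, and not normalized further. The authors' filter on detection was not used here, and the genome build of the array annotation is not given in the sources used here. Groups came from the labels. Genes and lists were chosen with earlier results of these data known. limma 3.58.1 (statmod 1.5.0, R 4.3.3) fitted a mean per group to 23410 clusters, with 8 residual degrees of freedom and two-sided p. The local-pooled-error test of the study's methods, rewritten with 100 intensity bins and a spline fit (df 10) and called at an adjusted p of 0.01, was an alternative, as were other thresholds, samples, weights, moderation, scalings, filters, clusters, a number-series term and leaving out each mouse. Values in all mice were given for Meig1, Foxj1 and the 4 genes with the smallest p in each comparison between groups, and for other lists the 2 genes with the smallest p in KOT against WTT. Basal and neuroendocrine airway, airway cartilage, smooth muscle and leukocyte lists are given among the other observations. The code was tested on simulated data. The number of arrays limits the precision.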

Additional observations from a re-analysis of the deposited data

How the results depend on the processing

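The number of the 35 genes that passed changed with the test. In KOT against WTT it was 1, and 0 under the local-pooled-error test (Meig1 adjusted p = 0.0304), at a limma adjusted p under 0.01, with only the arrays of these groups in the fit (limma adjusted p = 0.063), and with a term for the number series; without single mice it was 0 to 1, at 0.71 to 0.86 for Meig1. In WTT against WTC it was 31, and 15 under the local-pooled-error test and 23 to 32 without single mice. In KOT against KOC it was 11, and 4 under the local-pooled-error test, 4 at an adjusted p under 0.01, 18 with array weights and 5 to 12 without single mice. The cause of these changes was not tested. Apart from the local-pooled-error test, the shares of all clusters that passed under these settings were not counted. Whether the counts moved more in the 35 genes than over all clusters is therefore not known. The counts for KOC against WTC and for the difference between the responses stayed at 0. All medians kept their sign. Without single mice they were 0.17 to 0.29 in KOT against WTT, -0.15 to -0.06 in KOC against WTC, -0.67 to -0.52 in WTT against WTC, -0.31 to -0.20 in KOT against KOC and 0.26 to 0.40 for the difference between the responses. Meig1 in KOC against WTC, 0.01 in the fit reported, was -0.021 with cyclic loess and -0.040 to 0.059 without single mice, negative without WTC 76 (-0.03), WTC 157 (-0.01) and KOC 53 (-0.040). Of 1033 alternative values for 45 pairs of a gene and a comparison, 913 kept their direction and side of the threshold, 116 kept their direction and lost the threshold, and 4 turned. No paired analysis was possible because the groups share no animal numbers. The local-pooled-error test and the fit to only the groups compared give no value for the difference between the responses.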

Other observations

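Lists of other structural cells of the airway wall did not show the falls of the cilium genes, but most basal and cartilage genes read low. In each mouse 3 to 5 of the 6 basal genes and 5 of the 6 cartilage genes lay below the array median. Of the 2 neuroendocrine genes measured, 1 to 2 did so. A fall in such genes could be missed. None of the 6 basal cell genes passed by limma in any of the 5 comparisons, and their summed level was 719 to 944 in KOT mice and 682 to 784 in WTT mice, against 614 to 666 in KOC mice and 587 to 667 in WTC mice. The smallest p in KOT against WTT were those of Krt5 at 0.44 and Trp63 at 0.15. Of 6 cartilage genes 1 passed as higher in WTT against WTC and 0 in KOT against KOC, with Col2a1 at -0.26 and Matn3 at -0.25 in KOT against WTT. Of 6 smooth muscle genes 2 passed as higher in WTT against WTC and 0 in KOT against KOC, with Acta2 at -0.33 and Actg2 at -0.27 in KOT against WTT. The 2 neuroendocrine genes measured gave 1 passing as lower in KOT against KOC, with Chga at -0.20 and Syp at -0.18 in KOT against WTT. Of 7 leukocyte genes 1 passed as higher and 2 as lower in WTT against WTC, and 1 as higher and 1 as lower in KOT against KOC, with Cd79a at 1.34 and S100a8 at -1.39 in KOT against WTT. None of the genes named for KOT against WTT in this paragraph passed there.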
